A study of Homo sapiens with 2 samples.

Results

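The neurexin and neuroligin genes examined here were NRXN2, NRXN3, NLGN1, NLGN2 and NLGN3, 5 of 19881 protein-coding genes on the numbered and sex chromosomes. The rule that defines them uses gene names and no measured value, but the family was picked with earlier results of these data known. An OTX2 peak was assigned to a gene when it overlapped the GENCODE record of the gene, extended by 20 kb on each side, on GRCh38. This gave 179 of the 137412 OTX2 peaks, or 0.130% of them. The study mapped the binding of OTX2, a homeodomain transcription factor of the developing brain, by chromatin immunoprecipitation and sequencing in D283, an established human medulloblastoma cell line. The cells were untreated, OTX2-expressing control tumorspheres grown in neural proliferation medium with EGF and bFGF. One library came from chromatin precipitated with an anti-OTX2 antibody and the other from input chromatin of the same line. The peak set therefore describes 1 cell line with 1 library per condition. No group of samples could be compared, no test was made, and every count below is a description.

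Neurexins are presynaptic adhesion proteins and neuroligins are their postsynaptic ligands, and together they bridge the synaptic cleft and organise both sides of the junction. Each neurexin gene makes a long (alpha) form from a start at its 5′ end and a short (beta) form from a start deep inside the gene. NLGN1 is known mainly from excitatory synapses, NLGN2 from inhibitory synapses and NLGN3 from both. In the cerebellum, where medulloblastoma arises, neurexins of granule cell axons also bind secreted cerebellins. Several adhesion genes of this kind are long, though NLGN2 and NLGN3 are not. A long gene collects more peaks than a short one at the same density. Counts are therefore given below both as they are and per Mb of the extended record.

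All 5 genes had at least 1 OTX2 peak, which was also true of 88.1% of protein-coding genes. The count was 1 for NRXN2, 119 for NRXN3, 54 for NLGN1, 2 for NLGN2 and 3 for NLGN3. NRXN3 alone held 66.5% of the family's peaks and NLGN1 30.2%. Per Mb, NRXN3 had 68.5 peaks, NLGN1 57.6, NLGN3 42.6, NLGN2 36.4 and NRXN2 6.37, against a median of 50.9 over all protein-coding genes. NRXN3 and NLGN1 thus lay somewhat above that median, NLGN2 and NLGN3 somewhat below it, and NRXN2 far below it. The summit lay in an intron of the canonical transcript for 164 of the 179 peaks (91.6%), and in an exon of any transcript of the gene for 1 peak. Introns make up most of the records of NRXN3 and NLGN1. The intronic share over all peaks was not computed, so these counts show no preference for introns.

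The height of a peak is given below as the number of ChIP fragments over its summit, which was recovered from the deposited pileup, with an exact Poisson 95% interval that covers counting error only. Fold enrichment is the pileup over the local input background, both on the scale set by MACS2, as deposited. The 179 peaks had a median of 52 fragments and a median fold enrichment of 6.42, and all 137412 peaks had 53 and 6.10. A fold enrichment of at least 10 was found in 28.5% of the 179 peaks and in 26.3% of all peaks, and one of at least 20 in 6.15% and 6.72%. Taken as a whole, the family's peaks were therefore close to the full peak set in strength, which mostly describes NRXN3 and NLGN1, since these hold 173 of the 179.

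**Figure D1:**
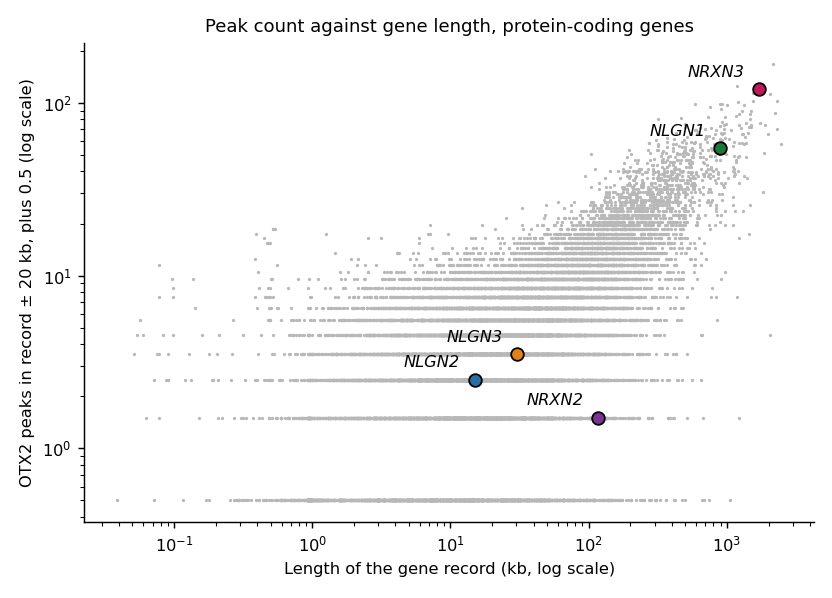
Number of OTX2 peaks in the extended record, plus 0.5, against the length of the gene record in kb, both on log axes, for protein-coding genes (grey points) and the 5 family members (labelled points). NRXN3, with 119 peaks, and NLGN1, with 54, lie among the long genes with many peaks, and NRXN2, with 1 peak, lies low among genes of its length.

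NRXN2 (ENSG00000110076, chr11:64606174-64723197, minus strand) is a gene of 117024 bp whose extended record held a single peak. The peak lay at chr11:64688576-64688884, with its summit 34.5 kb downstream of the gene start, in intron 5 of the canonical transcript. Its summit carried 30 fragments (20.2 to 42.8) at 2.56-fold enrichment, and its −log10 q-value was 3.18. Only 1.88% of all peaks ranked below it in fold enrichment. The local input background there was 8.0, against a median of 5.00 over all peaks. NRXN2 was thus represented by 1 of the weakest peaks of the set in fold enrichment. By fragments at the summit the peak was less extreme, at percentile 17.3 of all peaks.

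Among 1566 genes of similar record length (the shorter at least 0.8 times the longer), the median was 8 peaks and 3.77% had none. NRXN2 stood at percentile 5.84 of these genes by count. Its density of 6.37 peaks per Mb was 0.120 times that of chromosome 11, which had 52.9 peaks per Mb, and 0.111 times that of the 5 Mb on each side of the gene, which had 57.2. None of the 10 distinct transcript starts of NRXN2, merged where they lay close together, had a peak within 1 kb. The gene start, from which the alpha form is made, was 34.3 kb from the nearest peak, and the start of the short form, 79.7 kb into the gene, was 45.1 kb from it. The nearest start to the peak was 1.54 kb away.

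NRXN3 (ENSG00000021645, chr14:78170373-79868291, plus strand) is a gene of 1697919 bp. RefSeq promoter sequences, which share the GRCh38 build of the peaks, are given here for 3 of its starts because they are the positions around which the presence or absence of peaks is described. The table held 7 promoter entries for 4 of the 5 genes, the other gene being NRXN2. Each sequence runs 5′ to 3′ on the plus strand and ends just before the first annotated base of the transcripts. NRXN3 start 1 (chr14:78170123-78170372) precedes the gene start, NRXN3 start 5 (chr14:78403469-78403730) precedes an internal start in intron 4, and NRXN3 start 9 (chr14:79279130-79279338) precedes the start of the short form. Capitals mark the OTX2-type homeodomain motif described below.
NRXN3 start 1: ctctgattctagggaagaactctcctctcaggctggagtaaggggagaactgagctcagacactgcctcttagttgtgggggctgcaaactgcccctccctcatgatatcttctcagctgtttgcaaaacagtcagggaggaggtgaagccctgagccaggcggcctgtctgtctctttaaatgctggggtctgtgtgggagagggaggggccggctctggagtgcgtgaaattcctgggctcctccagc
NRXN3 start 5: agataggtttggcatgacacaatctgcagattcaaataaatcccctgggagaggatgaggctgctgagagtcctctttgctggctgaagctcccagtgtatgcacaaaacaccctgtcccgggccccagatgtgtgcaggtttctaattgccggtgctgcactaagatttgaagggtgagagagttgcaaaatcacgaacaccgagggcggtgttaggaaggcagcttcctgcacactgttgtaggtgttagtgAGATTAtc
NRXN3 start 9: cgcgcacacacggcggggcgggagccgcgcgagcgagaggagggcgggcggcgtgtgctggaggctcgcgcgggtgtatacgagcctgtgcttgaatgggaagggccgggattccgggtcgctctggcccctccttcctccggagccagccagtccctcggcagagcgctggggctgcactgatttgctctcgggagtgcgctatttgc

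The motifs searched were TAATCC, the site preferred by homeodomains of the OTX2 class, and the related TAATCT, on both strands of each 300-base promoter. Among 35116 RefSeq promoters, 6.36% held TAATCC, 7.17% held TAATCT and 12.8% held either. Of the 7 entries of the family, the one at NRXN3 start 5 held a TAATCT, on the minus strand at chr14:78403723-78403728, and the other entries held none. No peak lay at that match, and the nearest was 6.92 kb downstream of the start. A match of 6 letters is only a description of the sequence.

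The extended record of NRXN3 held 119 peaks, a count exceeded by only 2 protein-coding genes, DLG2 with 166 and GPC6 with 125. Only 13 protein-coding genes, NRXN3 included, were at least as long. The 22 other genes of similar length had 4 to 113 peaks with a median of 72, and all had fewer than NRXN3. Per Mb the gene was less extreme, at percentile 64.4 of all protein-coding genes, 1.26 times the density of chromosome 14 (54.2) and 1.14 times that of the 5 Mb on each side (60.2). NRXN3 therefore had the highest count among genes of similar length, but DAB1, shorter at 1552 kb, was close with 113 peaks. DAB1 was also the denser of the 2, at 71.0 peaks per Mb against 68.5 for NRXN3. Per Mb NRXN3 lay within the ordinary range of all protein-coding genes, but their median record length was only 27.6 kb. The 2 comparisons thus use different reference genes, and density was not ranked among genes of similar length.

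Of the 119 peaks, 112 lay in introns of the canonical transcript, 1 upstream and 6 downstream. Intron 4, of 347 kb, carried 39 of them, or 112 per Mb. Intron 10, of 147 kb, carried 10, or 68.1 per Mb, and intron 15, the longest at 479 kb, carried 17, or 35.5 per Mb. Cut into 3 equal parts of 566 kb, the gene had 61 peaks in the first part, 31 in the middle and 20 in the last, or 108, 54.8 and 35.3 per Mb. Over these 3 parts, OTX2 peaks thus thinned from the 5′ to the 3′ end of NRXN3. The fall was not even from intron to intron. Intron 1, with 4 peaks, had 55.8 per Mb, below the 112 of intron 4. Intron 20, the last, had 5 peaks, or 89.0 per Mb, above the 35.5 of intron 15.

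The start of the short form, 1109 kb into the gene, divided the record. The part before it, which the short form does not use, had 92 peaks (83.0 per Mb). The part after it, common to the long and short forms, had 20 peaks (34.0 per Mb). The median peak had 53 fragments in the first part and 36 in the second. The short-form start itself lay inside a stretch of 107 kb without any peak (chr14:79233767-79341165), the second longest such stretch in the extended record. The longest, of 110.4 kb, lay between 1436 and 1546 kb from the gene start. The peak nearest to the short-form start was 45.6 kb upstream of it and carried 85 fragments at 9.07-fold enrichment.

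**Figure D2:**
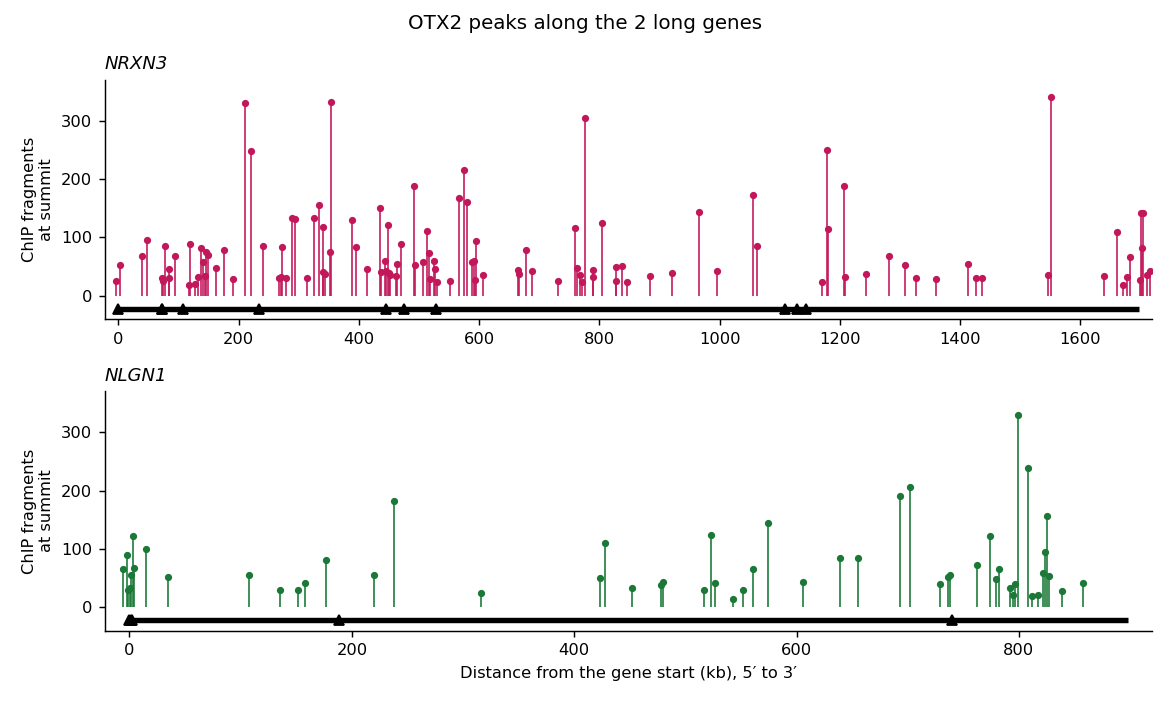
OTX2 peaks along NRXN3 and NLGN1, with distance from the gene start in kb on the horizontal axis and ChIP fragments at the summit on the vertical axis. Each vertical line with a dot is 1 peak, the black bar is the gene record, and triangles on it are merged transcript starts. In NRXN3 the peaks are densest in the first 566 kb and absent for 107 kb around the short-form start at 1109 kb, and in NLGN1 they are most numerous between 700 and 800 kb, with 12 peaks.

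Around the gene start of NRXN3 (−5 to +2 kb) there were 2 peaks. The summit of one lay at −4.16 kb and carried 25 fragments at 3.89-fold enrichment, and the summit of the other lay at 2.12 kb and carried 52 at 7.87-fold. Of 11 merged transcript starts, 2 had a peak within 1 kb. A peak of 31 fragments, enriched 4.77-fold (chr14:78242193-78242433), overlapped an alternative start at 72.0 kb, which is also the first base of exon 2 of the canonical transcript. A peak of 46 fragments, enriched 6.68-fold, lay 0.453 kb from another alternative start at 528 kb. None of these 4 peaks was taller than the median peak of the gene, which had 52 fragments.

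Of the 9 peaks of NRXN3 with at least 20-fold enrichment, 8 were intronic, and the other, of 141 fragments at 21.0-fold, lay downstream of the gene (chr14:79870649-79871818). The highest fold enrichment, 45.2, belonged to a peak 776.8 kb into the gene in intron 10 (chr14:78946595-78947563), with 305 fragments (272 to 341). This is above 99.9% of all peaks. A peak in intron 4 at 210 kb (chr14:78380136-78380913) carried 331 fragments (296 to 369) at 36.9-fold enrichment. A peak in intron 15 at 1178 kb (chr14:79347945-79349051), downstream of the short-form start, carried 250 fragments (220 to 283) at 36.4-fold. The intervals of the first and second of these overlapped, so that their heights could not be told apart.

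Height and enrichment did not always rank peaks alike. The tallest peak, at 1551 kb in intron 19 (chr14:79721050-79722166), carried 340 fragments (305 to 378) but was enriched 22.8-fold, over a local input of 10.0. A peak at 355 kb in intron 4 likewise carried 332 fragments but was enriched 13.6-fold, over a local input of 17.0. Across NRXN3, fragments at the summit ran from 18 to 340 with a median of 52, and fold enrichment from 2.86 to 45.2 with a median of 6.42. A fold enrichment of at least 10 was reached by 33 peaks (27.7%) and one of at least 20 by 9 (7.56%).

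NLGN1 (ENSG00000169760, chr3:173396284-174294372, plus strand) is a gene of 898089 bp with its canonical start 1.46 kb downstream of the start of the record. The RefSeq promoter of that canonical start (chr3:173397494-173397743, GRCh38, plus strand) is shown because it was partly covered by an OTX2 peak. Capitals mark the bases inside the peak, and neither motif occurred in it.
NLGN1 start 2: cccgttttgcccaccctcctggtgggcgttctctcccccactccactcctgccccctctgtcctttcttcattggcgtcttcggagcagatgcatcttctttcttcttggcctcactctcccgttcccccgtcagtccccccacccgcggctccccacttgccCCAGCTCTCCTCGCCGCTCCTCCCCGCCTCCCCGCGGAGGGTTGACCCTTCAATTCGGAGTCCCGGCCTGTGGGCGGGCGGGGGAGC

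The region around the start of NLGN1 carried a cluster of peaks. Between −5 and +2 kb of the gene start there were 4 peaks, a number reached by 1.65% of protein-coding genes, whereas at least 1 was found in 57.2%. Their summits lay at −2.52, −0.959, 0.488 and 1.48 kb from the gene start. They had 90, 29, 33 and 56 fragments and fold enrichments of 12.3, 2.48, 3.61 and 6.89. The strongest of the 4 was the one farthest upstream, and the one at 1.48 kb (chr3:173397657-173398054) spanned the canonical start and was the exonic peak of the family. Just outside this window, peaks followed at −5.38 kb (66 fragments), 3.00 kb (123 fragments) and 4.12 kb (67 fragments). The peak at 3.00 kb, with a fold enrichment of 10.2, was the tallest of these 7.

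In all, 54 peaks fell in the extended record of NLGN1, at 57.6 per Mb. This density was 1.10 times that of chromosome 3 (52.2) and 1.01 times that of the 5 Mb on each side (56.9). The 107 other genes of similar length had 0 to 98 peaks with a median of 41, and NLGN1 stood at percentile 70.6 among them. Introns held 49 of the peaks. Intron 4, of 467 kb, had 37 (79.1 per Mb), intron 1, of 206 kb, had 9 (43.6 per Mb) and intron 3, of 202 kb, had 3 (14.8 per Mb).

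The peaks of NLGN1 became denser towards its 3′ end, unlike those of NRXN3. Of 3 equal parts of 299 kb, the first and the middle part each had 13 peaks, or 43.4 per Mb, and the last had 25, or 83.5 per Mb. The segment from 700 to 800 kb alone held 12 peaks, and the segment from 300 to 400 kb held 1. A stretch of 107 kb, from 316 to 423 kb, had none.

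The strongest peaks of NLGN1 lay in this last part of intron 4. A peak at 799 kb (chr3:174195226-174196289) carried 329 fragments (294 to 367) at 36.7-fold enrichment, and a peak at 808 kb (chr3:174204208-174205202) carried 238 (209 to 270) at 24.8-fold. Their intervals did not overlap, so the first was the taller beyond counting error. These were the 2 peaks of NLGN1 (3.70%) with a fold enrichment of at least 20. At least 10 was reached by 17 peaks (31.5%). Fragments at the summit ran from 15 to 329 with a median of 54.5, which was close to the median of NRXN3.

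**Figure D3:**
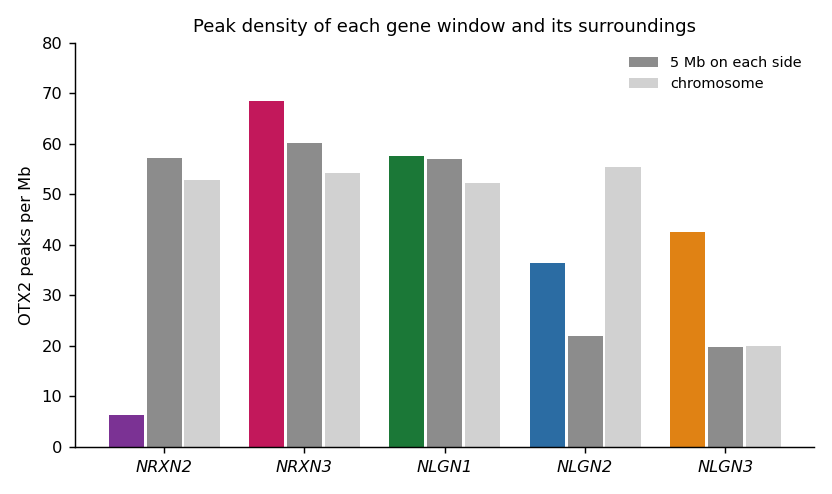
OTX2 peaks per Mb in the extended record of each gene (coloured bars), in the 5 Mb on each side of it (dark grey) and on its chromosome (light grey). NRXN2 lies at 0.120 times its chromosome, NLGN3 at 2.13 times, and the other genes between these.

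NLGN2 (ENSG00000169992, chr17:7404874-7419860, plus strand) is a gene of 14987 bp, and no peak fell inside its record. The 2 peaks of its extended record both lay in the flanks, next to starts of neighbouring genes. One (chr17:7404081-7404503) had its summit at −597 bp from the gene start and carried 35 fragments (24.4 to 48.7) at 5.36-fold enrichment. This summit was also 180 bp from the start of TMEM256, which runs in the opposite direction, and the peak cannot be assigned to either gene. The other (chr17:7435120-7435500), 30.4 kb downstream of the gene start, carried 64 fragments (49.3 to 81.7) at 9.64-fold enrichment, and its summit was 112 bp from the start of TMEM102. The canonical start of NLGN2, 2.97 kb into the record, was 3.34 kb from the nearest peak.

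The 2163 other genes of similar length had a median of 3 peaks, and 13.1% had none. NLGN2 stood at percentile 35.6 among them. Its density of 36.4 per Mb was 0.656 times that of chromosome 17 (55.5) but 1.66 times that of the 5 Mb on each side (21.9), so the direction of the difference depended on the reference, and it rested on 2 peaks.

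NLGN3 (ENSG00000196338, chrX:71144821-71175255, plus strand) is a gene of 30435 bp with 2 peaks in intron 5 and 1 downstream. The intronic peaks lay 14.1 kb from the gene start (chrX:71158755-71159049), and 15.7 kb from it (chrX:71160337-71160827). The first carried 44 fragments (32.0 to 59.1) at 6.69-fold enrichment and the second 77 (60.8 to 96.2) at 11.6-fold. The intervals did not overlap, and the second was the taller. The downstream peak (chrX:71181994-71182583), 37.4 kb from the gene start, carried 59 fragments (44.9 to 76.1) at 8.90-fold enrichment. The gene start was 13.9 kb from the nearest peak. One of 5 merged starts, that of a retained-intron transcript at 16.9 kb, had a peak within 1 kb.

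The 2388 other genes of similar length had a median of 4 peaks, and 10.3% had none. NLGN3 stood at percentile 40.2 among them. Its 42.6 peaks per Mb were below the median of all genes but 2.13 times the density of chromosome X, which had 20.0 peaks per Mb, and 2.16 times that of the 5 Mb on each side (19.7). Both ratios rested on 3 peaks.

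**Figure D4:**
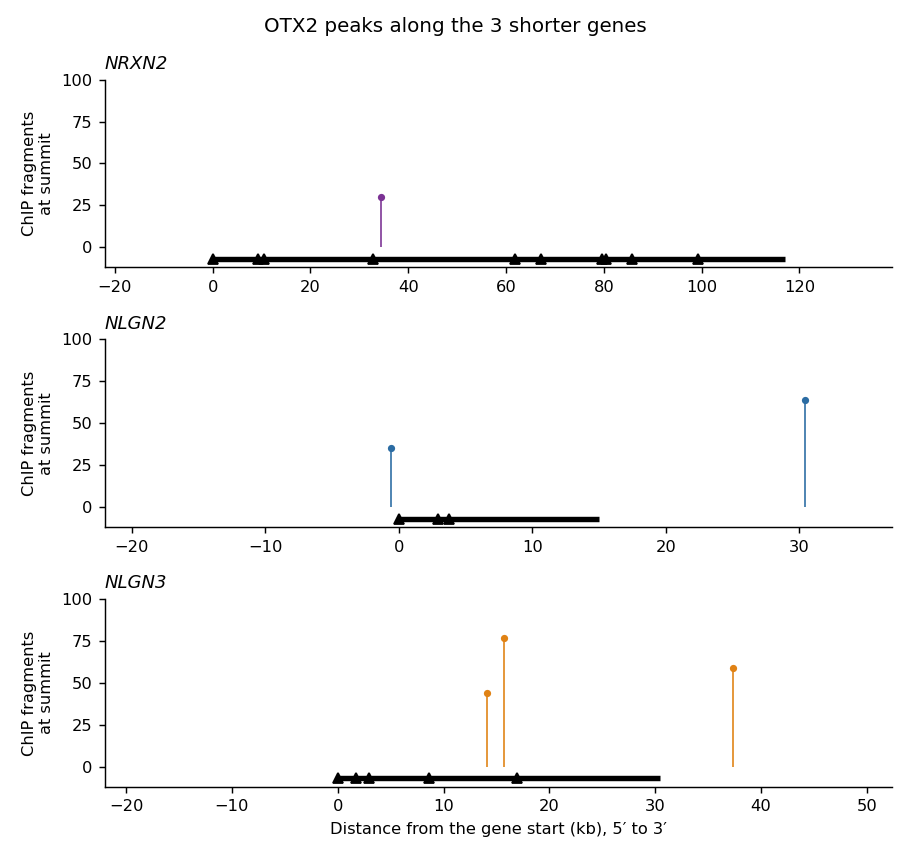
OTX2 peaks along NRXN2, NLGN2 and NLGN3, with distance from the gene start in kb on the horizontal axis and ChIP fragments at the summit on the vertical axis. Lines with dots are peaks, black bars gene records and triangles merged transcript starts. NRXN2 has 1 peak of 30 fragments, NLGN2 has 2 peaks outside its record, and NLGN3 has 2 peaks in an intron and 1 downstream.

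Taking all 5 genes, 3 (NRXN3, NLGN1 and NLGN2) had a peak between −5 and +2 kb of the gene start, against 57.2% of protein-coding genes. Of their 34 merged transcript starts, 7 (20.6%) had a peak within 1 kb, against 26.2% of all merged starts. Gene starts accounted for 2 of the 7, those of NLGN1 and NLGN2, out of 5 (40.0%, against 47.4% of all gene starts). Alternative starts accounted for the other 5 out of 29 (17.2%, against 17.7%). The peak counted for the NLGN2 gene start in both windows also lay at the start of TMEM256 and cannot be assigned to either gene. At least 1 alternative start with a peak was found in 3 of the 5 genes (NRXN3, NLGN1 and NLGN3), against 38.8% of genes that have alternative starts. The shares of starts were near the background. The share of genes was above it, but it rests on 5 genes with 29 alternative starts between them. The starts are also not independent, since 3 of the 7 lie within 2.16 kb at the 5′ end of NLGN1.

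**Figure D5:**
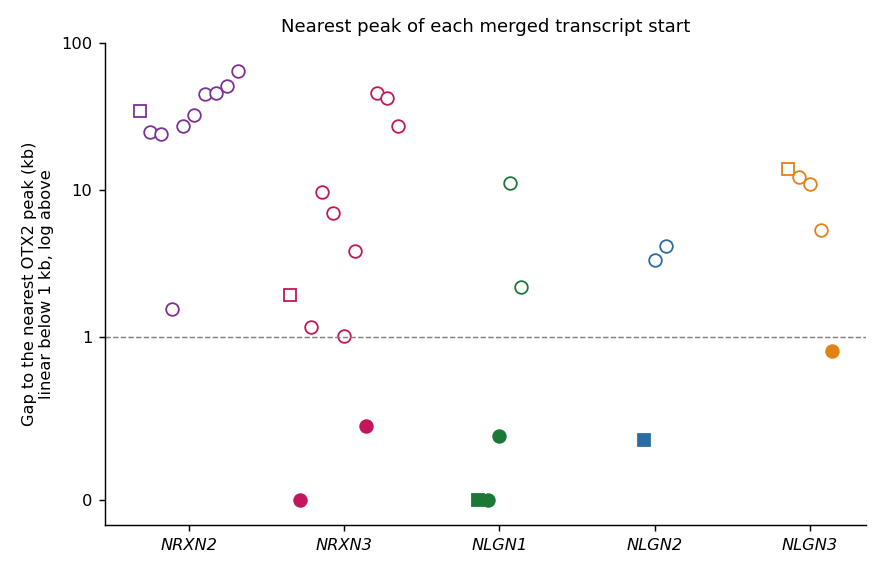
Distance in kb from each merged transcript start of the 5 genes to the nearest OTX2 peak, on an axis that is linear below 1 kb and logarithmic above, with the 1 kb limit as a dashed line. Squares are gene starts, circles alternative starts, and filled symbols have a peak within 1 kb. Of 34 starts, 7 lie within 1 kb, and the short-form starts of NRXN2 and NRXN3 lie 45.1 and 45.6 kb from a peak.

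The genes most like each member were looked up among genes of similar length, by the distance between their peaks per Mb and median fragments per peak, both on a log2 scale. For NRXN3 they were DAB1, with 113 peaks (71.0 per Mb), and PDE4D, with 102 (64.0 per Mb). For NLGN1 they were INPP4B, with 49 peaks (56.7 per Mb), and NEGR1, with 55 (59.4 per Mb). For NRXN2 they were LANCL3 and SPTLC1, each with 1 peak, for NLGN2 MOG and ZBED1, each with 2, and for NLGN3 ZNF155 and PPP6R1, each with 3. The place of ZBED1 is uncertain because it has near-identical copies on both sex chromosomes. Genes with so few peaks are alike in little more than their count.

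Known partners of the family were described in the same way, as 20 extracellular partners and related ligands and receptors, and 21 scaffold proteins of the pre- and postsynaptic side. A peak near the gene start (−5 to +2 kb) was found for 11 of the 20 (55.0%) and 12 of the 21 (57.1%), against 57.2% of all protein-coding genes. The median density was 46.8 peaks per Mb in the first group and 44.8 in the second, against 50.9. These shares and densities were near those of all genes. The partners had a median record length of 117 kb, against 27.6 kb over all protein-coding genes, so the densities compare genes of unlike length.

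Single partners ranged widely. Among the extracellular partners, LRRTM2, a postsynaptic neurexin ligand, had the highest density, 172 peaks per Mb, with a peak of 204 fragments at 29.0-fold enrichment near its start. LRRTM2 lies within CTNNA1, so these peaks belong to the records of both. CBLN1, the cerebellin of granule cells, had 137 peaks per Mb from 6 peaks, and NXPH4, a neurexophilin, had 121. At the other end NXPH1 had 16.7 per Mb, and CBLN2 and CBLN4 had no peak. The latrophilin genes ADGRL1 and ADGRL2 followed LRRTM2 in enrichment at the start, at 16.6-fold and 9.05-fold.

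Among the scaffolds, LIN7C had 153 peaks per Mb, DLG2, the gene with the most peaks of all, 75.0 and DLG1 70.8. SHANK1, SHANK2 and DLGAP2, scaffolds of the excitatory postsynaptic density, had 9.95, 9.70 and 9.89. Near their starts, LIN7A had a peak of 153 fragments at 20.8-fold enrichment and APBA1 one of 130 fragments at 16.1-fold. The partners thus spanned a wider range of densities than the 5 genes themselves. A list of 41 genes tends to span more than one of 5, so this is no result about the partners.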

How the data were processed

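Chromatin of untreated D283 tumorspheres was sequenced by the study as 1 OTX2 ChIP library (61259377 fragments after duplicate removal) and 1 input library (22521186). Per the labels and the file header, reads were aligned to GRCh38 with bowtie2 2.2.4 and peaks were called by the authors with MACS2 2.1.0.20140616 at a q-value limit of 0.05, with 1 duplicate kept, the input as control and the larger library scaled down. The deposited pileup is a signal scaled to the input, the deposited fold enrichment is a ratio over the local input, and the deposited −log10 q-value comes from the same caller. Peaks in ENCODE blacklisted regions were masked by the authors. The pileup moved in steps of 0.735, which is 2 times the ratio of input to ChIP fragments and was taken as 1 ChIP fragment, so the fragments at each summit were recovered as pileup divided by that step, and all were within 0.01 of a whole number. Fragment intervals cover counting error only.

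Gene records, transcripts and exons were those of GENCODE, at the GRCh38 positions recorded in the annotation, with no conversion of coordinates, and 17391 of 1650930 exon records without such a position were left out. Peaks were joined to records extended by 20 kb, to gene starts (5 kb upstream to 2 kb downstream) and to merged transcript starts (1 kb). In a pair of similar length the shorter record was at least 0.8 times the longer, and percentiles count ties at their midpoint. A gene's neighbourhood was the 5 Mb on each side. Named were the 5 genes, the 2 genes most like each, genes whose start lay at one of their peaks, and the 3 highest and 3 lowest partners of each list by peaks per Mb and the 3 highest by enrichment at the start, of which 1 is not reported here. The members and lists were chosen with earlier results of these data known. The joins were checked on simulated data. Scripts ran in Python 3.11.15 with scipy 1.17.1, numpy 2.4.6, matplotlib 3.10.9 and pandas 2.3.3. Alternatives were a stricter −log10 q-value or fold enrichment, no flank, other start definitions and another reference region. Peak sequences and a comparison of the proteins were not analysed here.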

Additional observations from a re-analysis of the deposited data

How the results depend on the processing

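Of 102 alternative values for 19 results, 87 stayed within counting error or 1.5 times the main value and 15 moved beyond it. With a fold enrichment of at least 5, NLGN1 fell from 57.6 to 34.1 peaks per Mb, and the partner median from 46.8 to 28.9. The median fragments per peak became 83 in NLGN1 and 78 in NRXN3. Such a limit can only lower a density, and NRXN3 also fell, from 68.5 to 46.6 peaks per Mb. The ratio of NLGN1 to its chromosome changed little, from 1.10 to 1.02. The NLGN2 ratio to its reference was 1.12 under this limit, 1.66 with the 5 Mb neighbourhood as reference and 0.656 with the chromosome. NRXN2 fell to 0 peaks per Mb and a ratio of 0 with a −log10 q-value of at least 5. The same held with a fold enrichment of at least 5. Its single peak, with a −log10 q-value of 3.18, thus passed the caller's q-value limit of 0.05 but neither stricter limit. Without the 20 kb flanks NLGN2 had 0 peaks per Mb and a ratio of 0, and NLGN3 had 65.7 peaks per Mb and a ratio of 3.29. Counting a peak near any transcript start in place of the gene start raised the genes with a start peak from 3 to 5. The share over all protein-coding genes was not computed for this definition. With 34 merged starts in the 5 genes, the rise is therefore no result about the family. The median fragments per peak had no value for NRXN2 under either stricter limit, nor for NLGN2 without flanks. No paired analysis was possible because each condition had a single library. Variation between cultures was not measured, and the lowest summits, down to 15 fragments, are the least certain.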

Other observations

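Among the 179 peaks, 3 lay within 1 kb of the start of a gene that is not protein-coding, in each case an lncRNA without a symbol. One was the peak with 46 fragments 528 kb into NRXN3, beside ENSG00000258719, which runs on the minus strand. Another was in NLGN1 at 423 kb, at the far end of its longest stretch without peaks, beside ENSG00000289417. The single peak of NRXN2 overlapped the record of ENSG00000289058. For these peaks the nearest annotated start is therefore not always that of the neurexin or neuroligin.

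A local input background of at least 3 times its lower limit was found at 6 of the 179 peaks (3.35%), and at 4.22% of all peaks. NRXN3 had 4 of the 6 and NLGN1 the other 2. In contrast, the local input was at the caller's lower limit at 29.1% of the family's peaks and at 26.4% of all peaks, including all the peaks of NLGN2 and NLGN3.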
